A study of Mus musculus with 80 samples.

Results

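The genes described here are the 9 subunits of the AMPA and kainate classes of ionotropic glutamate receptor, of which 4 (Gria1 to Gria4) build AMPA receptors and 5 (Grik1 to Grik5) build kainate receptors. They were chosen by name out of 27179 genes in the count table, and all 9 of 9 were among the 13016 genes that reached at least 5 CPM (counts per 1000000 counted reads of a library) in at least 8 libraries. RNA-seq was performed on 5 brain regions of 16 female mice (C57BL/6 in the labels, C57BL/6J in the methods of the study), 8 virgin and 8 primiparous, where primiparous means that a female had raised a single litter. All females were age-matched and lived in 1 barrier room. The primiparous females were each paired with a male from 8 weeks of age, gave birth and weaned their pups, and tissue of both groups was taken on the same day. The labels put this day 3 weeks after weaning, and the methods of the study describe a longer interval. Virgin females were kept together and never met a male, so parity cannot be told apart from mating and contact with males. The hypothalamus was taken whole and the other regions from the left side. The table holds 77 libraries, each from 1 animal, with 8 virgin and 8 primiparous libraries for the hypothalamus and the neocortex and 7 virgin and 8 primiparous libraries for the hippocampus, the cerebellum and the amygdala. The libraries of each region were sequenced as a separate pool, so that region and pool cannot be told apart.

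AMPA receptors are tetramers that carry most of the fast excitatory current at synapses. Their calcium permeability is set at the Q/R site, a glutamine codon in the pore loop that RNA editing recodes to arginine in nearly all Gria2 transcripts of the adult brain and that remains glutamine in Gria1, Gria3 and Gria4. Kainate receptors act on both sides of the synapse and are built from the low-affinity subunits Grik1, Grik2 and Grik3, which can form channels alone, and the high-affinity subunits Grik4 and Grik5, which need one of the former to reach the surface. In the hypothalamus both receptor classes take part in the excitatory drive onto neuroendocrine neurons.

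The Q/R site shows how the subunits relate to each other and where the edited Gria2 transcript departs from its genome sequence. Each sequence below is the coding strand around this codon, 57 bases long, with the codon itself in capitals, read from GENCODE M21 transcripts on GRCm38, the assembly also called mm10. The codon lies at chr11:57243094-57243096 in Gria1 (exon 11 of 16), at chr3:80706911-80706913 in Gria2 (exon 11 of 16, minus strand), at chrX:41610265-41610267 in Gria3 (exon 11 of 16) and at chr9:4464137-4464139 in Gria4 (exon 12 of 17, minus strand). In the kainate subunits it lies at chr16:87940542-87940544 in Grik1 (exon 12 of 17), at chr10:49244329-49244331 in Grik2 (exon 13 of 17) and at chr7:25022497-25022499 in Grik5 (exon 15 of 20), all on the minus strand.
Gria1: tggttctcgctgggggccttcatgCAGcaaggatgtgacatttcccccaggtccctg
Gria2: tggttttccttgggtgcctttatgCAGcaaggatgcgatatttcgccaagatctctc
Gria3: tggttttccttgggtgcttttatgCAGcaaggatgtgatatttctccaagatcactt
Gria4: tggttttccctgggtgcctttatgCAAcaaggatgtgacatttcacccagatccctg
Grik1: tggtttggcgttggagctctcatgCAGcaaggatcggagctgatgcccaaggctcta
Grik2: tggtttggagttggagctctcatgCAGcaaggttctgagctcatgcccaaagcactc
Grik5: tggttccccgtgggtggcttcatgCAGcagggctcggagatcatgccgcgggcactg
All 7 genes have a glutamine codon in the genome, written CAG in 6 of them and CAA in Gria4. Gria2 and Gria3 share 52 of the 57 bases, Gria1 and Gria4 share 50, and Grik1 and Grik2 share 50, while an AMPA and a kainate subunit, over all 9 genes, share 35 to 39. The values below count all reads of a gene together, so edited and unedited transcripts, and the flip and flop splice forms of the AMPA subunits, are not told apart.

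The libraries held 7959192 to 37871854 counted reads each, with a median of 17623886. A member had at least 91 reads in every library (the lowest was for Grik1) and at most 45934 (the highest was for Gria1). Marker genes of the dissected regions were checked as summed CPM. The 5 hypothalamic neuropeptide markers reached 776 to 1421 CPM in hypothalamus libraries and at most 70.4 CPM elsewhere, and the 4 cerebellar markers reached 4575 to 5230 CPM in the cerebellum. The 3 amygdala markers did not set the amygdala (38.7 to 62.7 CPM) apart from the neocortex (37.4 to 55.0 CPM). The hippocampus library of primiparous animal 413 held 413 CPM of the 4 cerebellar markers, against 7.20 to 19.6 CPM in the other 14 hippocampus libraries, and hippocampus values of Gria4, for which this library was highest, are given with and without it. Leaving it out moved the hippocampus mean of the other 8 members by at most 0.989%. In the hypothalamus, 4 thalamic markers summed to 424 to 628 CPM in virgin and 352 to 406 CPM in primiparous libraries, with no overlap.

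The first comparison asked how the subunits are distributed over the brain regions. The plot of all members by region shows their CPM in each of the 77 libraries. Regions were compared in pairs with the quasi-likelihood F-test of edgeR in 1 fit of all 10 groups of region and state, averaged over both states, after TMM scaling, which corrects each library for its composition. A pair of regions was called different when its p-value was under 0.05 after Benjamini-Hochberg adjustment across the 13016 genes. Of 90 pairs (10 for each of 9 members) 80 were called. All 9 members were called between cerebellum and hypothalamus (81.1% of all genes), hippocampus (78.7%) or amygdala (80.2%). Between hypothalamus and hippocampus (73.0% of all genes), hypothalamus and neocortex (77.7%), hippocampus and neocortex (67.0%) and neocortex and cerebellum (79.9%), 8 of 9 were called, and between the amygdala and hypothalamus (71.0%), hippocampus (58.7%) or neocortex (62.5%), 7 of 9. Most genes thus differed between a pair of regions, and the count of calls does not set the members apart. CPM values in the text are without TMM scaling, so a gap in CPM can differ from the log2 difference of the fit.

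**Figure D1:**
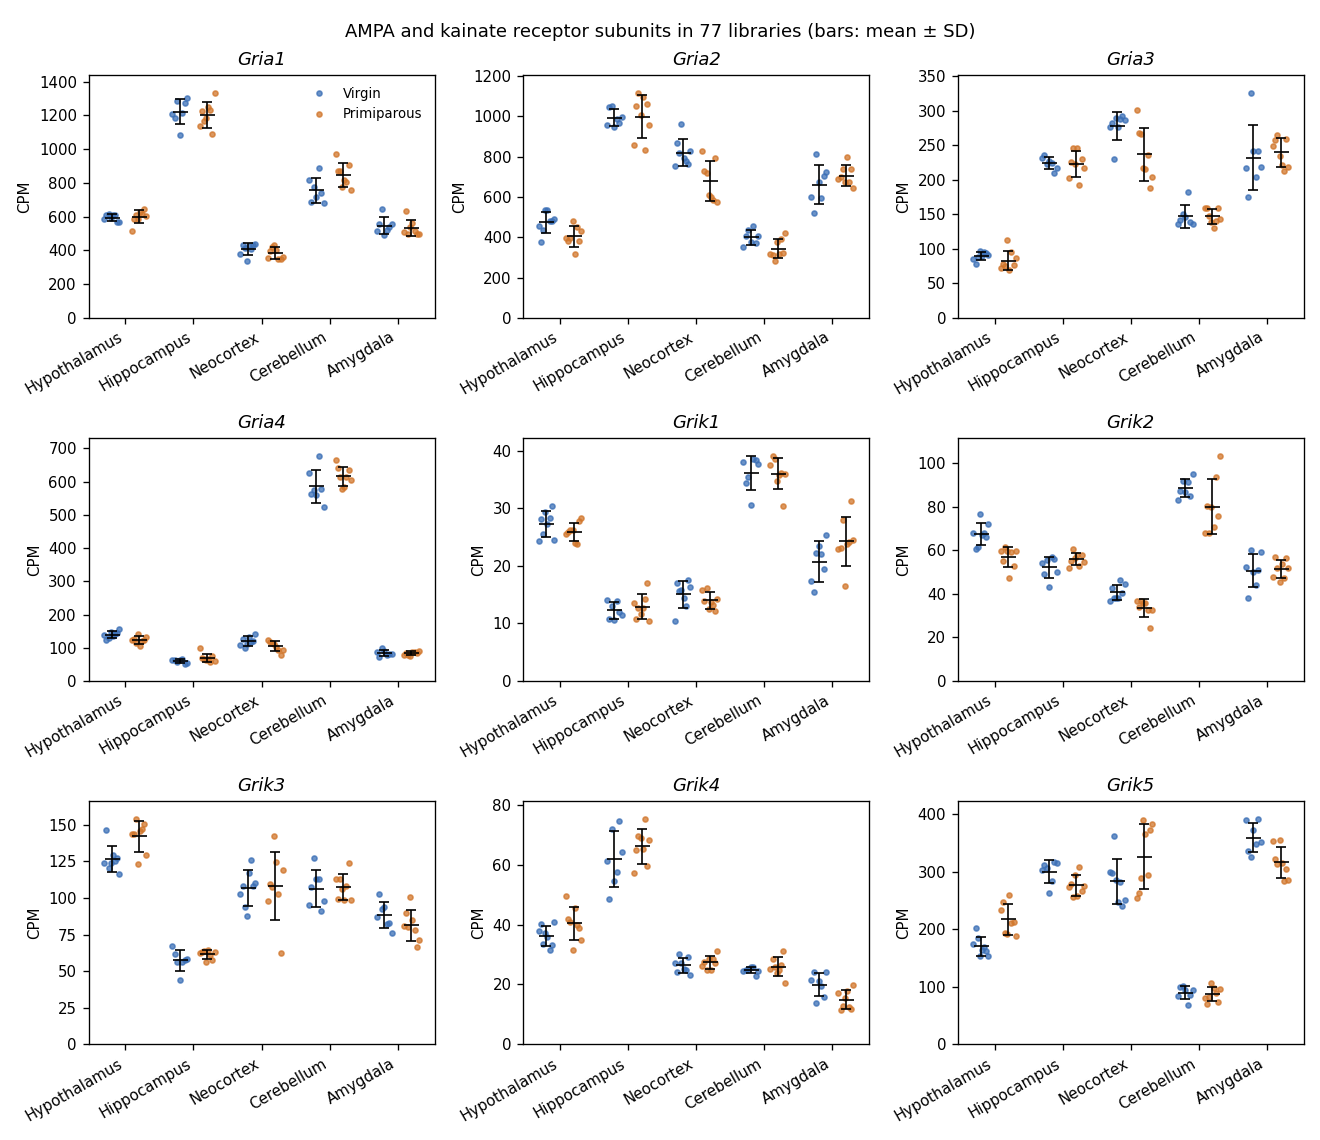
CPM of each of the 9 subunits (vertical axes, linear and starting at 0) by brain region, with 1 point per library, virgin in blue and primiparous in orange, and the mean with its SD as black bars. Gria4 stands apart in the cerebellum at 523 to 677 CPM, Gria1 and Gria2 are highest in the hippocampus, and Grik3 is highest in the hypothalamus.

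Gria1 (Entrez Gene 14799, chr11:57011387-57330244), a subunit that is inserted into synapses during long-term potentiation, stood at 1211 ± 73.2 CPM in the hippocampus (SD, n = 15). It followed at 804 ± 84.2 in the cerebellum (n = 15), 597 ± 29.5 in the hypothalamus (n = 16), 538 ± 47.2 in the amygdala (n = 15) and 396 ± 35.8 in the neocortex (n = 16). Each step in this order was called except the one from hypothalamus to amygdala (log2 difference 0.01, SE 0.041, adjusted p = 0.889, edgeR). Gria2 (Entrez Gene 14800, chr3:80681450-80802835), whose edited form makes the receptor impermeable to calcium, was also highest in the hippocampus at 995 ± 80.5 CPM. The neocortex (749 ± 110) and the amygdala (685 ± 75.8) came next and were not called different from each other (adjusted p = 0.0976). The hypothalamus (439 ± 61) and the cerebellum (369 ± 51.0) had the lowest Gria2 levels and differed by 0.24 on the log2 scale (SE 0.055, adjusted p = 7.48e-05). Gria1 and Gria2 therefore shared their top region and differed in the cerebellum, which was second for Gria1 and last for Gria2.

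Gria3 (Entrez Gene 53623, chrX:41400854-41678601), which commonly pairs with Gria2, was highest in the neocortex (257 ± 36.4 CPM), followed by amygdala (236 ± 34.5) and hippocampus (223 ± 14.5). Neighbours in this order were not called (adjusted p = 0.140 and 0.294), whereas the hippocampus lay below the neocortex by 0.17 on the log2 scale (SE 0.059, adjusted p = 0.008, edgeR). The cerebellum followed at 147 ± 13.2 CPM and the hypothalamus was lowest at 86.5 ± 11.3 CPM. Gria4 (Entrez Gene 14802, chr9:4417896-4796234), known from cerebellar granule cells, Bergmann glia and fast-spiking interneurons, had the widest range of the 9 members. It reached 602 ± 41.6 CPM in the cerebellum against 132 ± 13.2 in the hypothalamus, a log2 difference of 2.20 (SE 0.056, adjusted p = 5.51e-51). The neocortex (113 ± 16.4 CPM) was not called different from the hypothalamus (adjusted p = 0.0501, and 0.045 with the animal as a block), and the amygdala (84.2 ± 6.66) and hippocampus (65.4 ± 11) were lower, so that the highest region exceeded the lowest 9.20-fold in mean CPM. Without the hippocampus library of animal 413, the hippocampus mean of Gria4 was 63.1 ± 6.4 CPM (n = 14) and this range was 9.55-fold. For the other 8 members this range was 2.26-fold to 3.8-fold.

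Of the low-affinity kainate subunits, Grik1 (Entrez Gene 14805, chr16:87895900-88290265) and Grik2 (Entrez Gene 14806, chr10:49094833-49788766) both had their highest level in the cerebellum. Grik1, a subunit of interneurons in the forebrain, stood at 36.1 ± 2.71 CPM in the cerebellum, 26.6 ± 1.98 in the hypothalamus and 22.6 ± 4.20 in the amygdala, and the latter pair was not called (adjusted p = 0.141). It was lowest in the neocortex (14.5 ± 1.95) and hippocampus (12.6 ± 1.80). Grik2, the subunit of mossy fibre synapses and granule cells, ran from 83.9 ± 10.4 CPM in the cerebellum through hypothalamus (62.1 ± 7.25), hippocampus (54.1 ± 4.27) and amygdala (51.1 ± 5.92), where neighbours were not called (adjusted p = 0.363 and 0.164), to 37.1 ± 5.18 in the neocortex. Grik3 (Entrez Gene 14807, chr4:125490700-125714173), a subunit of low glutamate sensitivity, was the only member with its highest mean in the hypothalamus, at 134 ± 12.5 CPM. The neocortex (108 ± 18.0) lay below it by 0.20 on the log2 scale (SE 0.061, adjusted p = 0.00202) and was not called different from the cerebellum (107 ± 10.4, adjusted p = 0.0766). The amygdala (84.6 ± 10.2) and the hippocampus (59.5 ± 5.46) were lower.

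The high-affinity subunits had unlike patterns. Grik4 (Entrez Gene 110637, chr9:42518135-42944493), known from hippocampal CA3 pyramidal cells, was highest in the hippocampus at 64.1 ± 7.64 CPM, followed by hypothalamus (38.3 ± 4.97), neocortex (26.8 ± 2.22), cerebellum (25.3 ± 2.41) and amygdala (17.2 ± 4.33), and every step was called. Grik5 (Entrez Gene 14809, chr7:25009849-25072346), the widely expressed partner of Grik2, was highest in the amygdala at 336 ± 33.6 CPM. It was close in the neocortex (305 ± 52.2) and hippocampus (287 ± 21.7), a pair that was not called (adjusted p = 0.447), and fell to 194 ± 32.7 in the hypothalamus and 88.4 ± 11.6 in the cerebellum. The step from hypothalamus to cerebellum was 1.12 on the log2 scale (SE 0.059, adjusted p = 1.28e-29). The cerebellum was thus the top region for both Grik1 and Grik2 and the lowest for Grik5. With the animal as a block and a correction for gene length and GC content, described below for the parity comparison, 77 of the 80 called pairs were also called, 5 pairs were gained and 3 were lost. The lost ones were Gria2 between hippocampus and neocortex (log2 difference 0.09, adjusted p = 0.140, edgeR), Grik5 between hippocampus and amygdala (−0.02, adjusted p = 0.610) and Grik4 between neocortex and cerebellum (0.11, adjusted p = 0.138). Among those gained, Gria2 (0.35, adjusted p = 7.33e-08) and Gria3 (0.26, adjusted p = 1.86e-07) were higher in the neocortex than in the amygdala.

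To compare subunits with each other, each CPM value was divided by the length of the exons of its gene in kilobases (kb), from 5.168 kb for Grik5 to 15.548 kb for Gria2. On this scale the summed AMPA level was 297 ± 12.6 CPM per kb in the hippocampus (SD, n = 15), 267 ± 19.9 in the cerebellum (n = 15), 170 ± 13.6 in the amygdala (n = 15), 158 ± 14 in the neocortex (n = 16) and 157 ± 7.25 in the hypothalamus (n = 16). The summed kainate level ran from 45.0 CPM per kb in the cerebellum to 84.6 in the amygdala. The ratio of both sums was lowest in the neocortex (2.0), the amygdala (2.03) and the hypothalamus (2.35) and higher in the hippocampus (3.78) and the cerebellum (5.97). The order of the low 3 regions depends on the length used, since with coding length the ratio was 3.33 in the neocortex, 3.23 in the amygdala and 2.90 in the hypothalamus, against 5.56 in the hippocampus and 5.83 in the cerebellum.

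**Figure D2:**
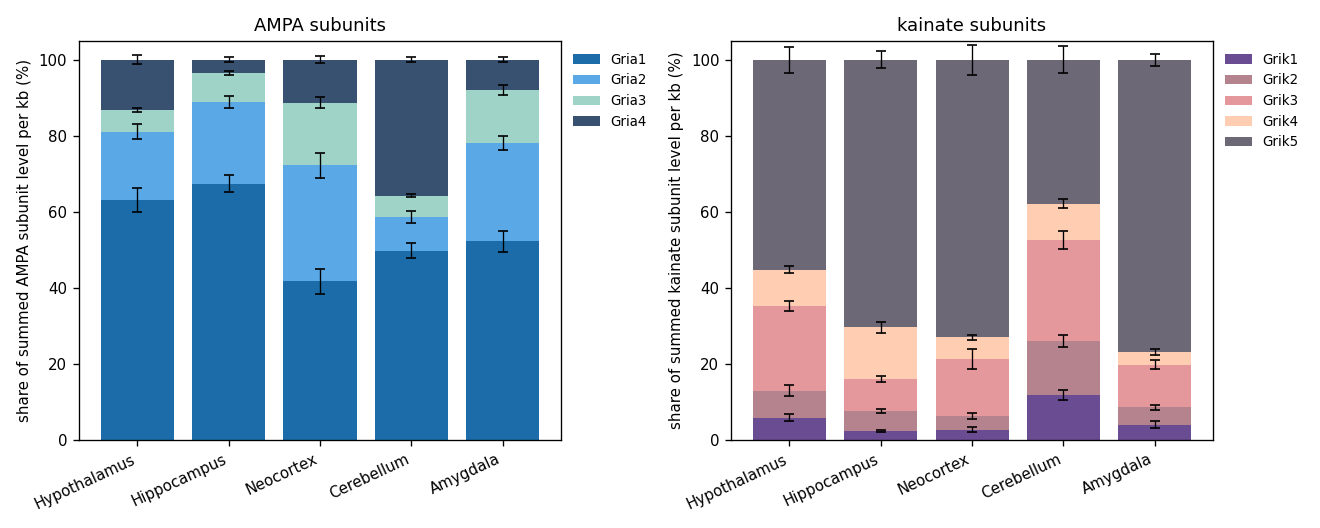
Share of each subunit in the summed AMPA level (left) and the summed kainate level (right) per kb of exon, in percent, stacked by brain region over both states, with the SD over libraries as bars. Gria1 and Grik5 take the largest shares in each of the 5 regions, and the cerebellum stands out for Gria4 at 35.7% and for a Grik5 share of only 37.9%.

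In the plot of subunit shares, Gria1 made up 63.1% ± 3.24 of the AMPA sum in the hypothalamus (SD, n = 16), 67.4% in the hippocampus, 52.3% in the amygdala, 49.7% in the cerebellum and 41.7% in the neocortex. Gria2 had its largest share in the neocortex (30.5%) and its smallest in the cerebellum (9.0%), where Gria4 took 35.7% against 3.5% in the hippocampus. Grik5 made up 55.2% ± 3.45 of the kainate sum in the hypothalamus (n = 16) and 76.8% in the amygdala. Grik3 was second in the hypothalamus at 22.2% and reached 26.5% in the cerebellum. These shares depend on the length used: the coding part of Gria2 is 2.804 kb of its 15.548 kb of exon, and with coding length Gria2 led the AMPA sum in the neocortex (49.4%) and the amygdala (44.5%), and Grik3 led the kainate sum in the cerebellum (33.2% against 24.5% for Grik5). Which transcript ends are used in each region was not measured.

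The second comparison, the main question of the study, was between virgin and primiparous females within a region. In the hypothalamus, 5 of 9 members passed the threshold, where 22.6% of all 13016 genes did. The 3 that were lower in primiparous females were Gria2, Gria4 and Grik2 (11.8% of all genes were lower), and the 2 that were higher were Grik3 and Grik5 (10.8% of all genes were higher). The median log2 difference was −0.09 over the 9 members and 0.01 over all genes. Each fit held only the 16 libraries of this region. In bulk tissue, fewer cells of a type and less RNA per cell cannot be told apart.

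**Figure D3:**
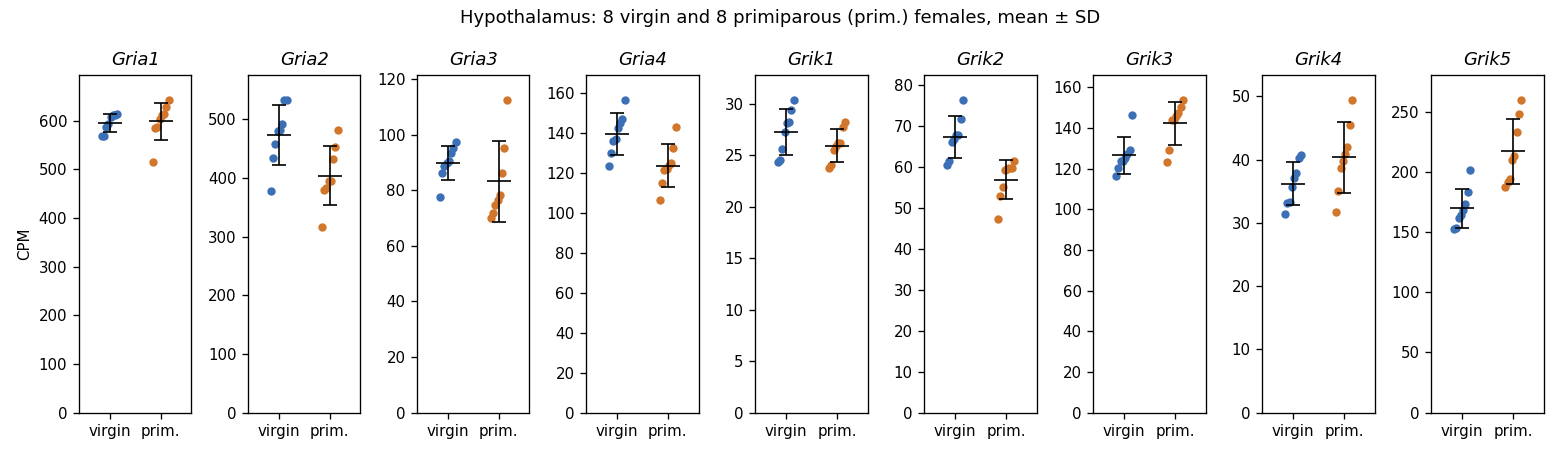
CPM of the 9 subunits in the hypothalamus (vertical axes, linear and starting at 0), with 1 point per animal, 8 virgin (blue) and 8 primiparous (orange), and the mean with its SD in black. The groups overlap for all 9 members (0.884% of all genes do not overlap), and the shift is easiest to see for Grik5, where 8 of 8 primiparous values lie above the virgin mean of 170 CPM, and for Grik2, where 8 of 8 lie below the virgin mean of 67.4 CPM.

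Grik5 had the largest difference. Its lowest, median and highest values were 153, 166 and 202 CPM in virgin and 188, 212 and 260 CPM in primiparous hypothalamus. The ranges overlapped, and 8 of 8 primiparous libraries lay above the virgin mean. The log2 fold change of primiparous over virgin was 0.33 (SE 0.067, adjusted p = 0.00262, edgeR), a 1.26-fold higher level. Grik3 was at 116, 124 and 146 CPM in virgin and 123, 145 and 154 CPM in primiparous females, with 7 of 8 primiparous values above the virgin mean. Its log2 fold change was 0.15 (SE 0.052, adjusted p = 0.0434), close to the threshold. When single libraries were left out in turn, Grik3 passed in only 3 of 16 fits (adjusted p from 0.00972 to 0.0908), namely without virgin animal 409, primiparous animal 418 or primiparous animal 4493.

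Grik2 was the member with the clearest decrease. It was at 60.6, 67.3 and 76.4 CPM in virgin and 47.4, 59.3 and 61.5 CPM in primiparous hypothalamus, and 8 of 8 primiparous values lay below the virgin mean. The log2 fold change was −0.26 (SE 0.061, adjusted p = 0.00529). In this fit, the low-affinity subunits Grik2 and Grik3 thus differed between the groups in opposite directions. Grik5, which needs such a partner, went the way of Grik3. With the length and GC correction described below, the contrast of Grik2 and Grik3 was not kept. Grik2 was then at 0.01 (adjusted p = 0.920, edgeR), with the same sign as Grik3. Gria2 was at 377, 480 and 533 CPM in virgin and 317, 394 and 482 CPM in primiparous females, with 7 of 8 primiparous values below the virgin mean and a log2 fold change of −0.25 (SE 0.073, adjusted p = 0.0177). Gria4 was at 123, 140 and 157 CPM against 107, 123 and 143 CPM, again with 7 of 8 below, and a log2 fold change of −0.20 (SE 0.058, adjusted p = 0.018). Calls for Gria2, Gria4, Grik2 and Grik5 held in 16 of 16 fits that left out 1 library. They were less stable in other fits described below. Only Grik5 passed with the length and GC correction, and none passed with the digits of the animal number as covariate. In 1 fit of all 10 groups of region and state, Gria4 did not pass.

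The other 4 members did not pass. Gria1 had the same level in both groups to within its error (595 ± 19.1 and 598 ± 38.6 CPM, SD, n = 8 each, log2 fold change −0.01, SE 0.043, adjusted p = 0.848). Gria3 was at 89.9 ± 6.21 CPM in virgin and 83.2 ± 14.4 CPM in primiparous females (log2 fold change −0.14, adjusted p = 0.222). Its primiparous values were spread by animal 418, which was highest at 113 CPM, and without this library the log2 fold change was −0.21 with an adjusted p of 0.0134 (edgeR). Grik1 (log2 fold change −0.09, adjusted p = 0.347) and Grik4 (0.14, adjusted p = 0.220) overlapped widely between the groups, and without primiparous animal 413 Grik4 was at 0.09 (adjusted p = 0.429).

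Summed over subunits per kb of exon, the AMPA level was 160 ± 4.61 CPM per kb in virgin and 153 ± 7.92 in primiparous hypothalamus, and the kainate level was 62.2 ± 3.78 and 72.8 ± 6.22 (SD, n = 8 each). Within the kainate sum the share of Grik5 was 52.8% in virgin and 57.6% in primiparous females and that of Grik2 was 8.22% and 5.96%. Within the AMPA sum the share of Gria2 was 19.0% and 17.0%. These sums and shares repeat the single-gene values above and were not tested.

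Marker genes of other cells, base composition and the numbering of the animals moved with the state in the hypothalamus. The sum of the thalamic markers given above was lower in primiparous libraries. Only 1 of the 4 passed on its own (Slc17a6, the vesicular glutamate transporter of thalamic and many hypothalamic neurons, log2 fold change −0.38, adjusted p = 0.00098), and of the others Prkcd was at −0.58 (adjusted p = 0.243), Tcf7l2 at −0.50 (adjusted p = 0.190) and Rgs16 at 0.05. Of 6 pan-neuronal markers, Rbfox3 was higher and Syt1, Snap25 and Elavl4 were lower, with sums of 3372 to 3727 CPM in virgin and 3138 to 3626 CPM in primiparous libraries. Of 3 markers of oligodendrocyte precursors, which carry AMPA receptors, Olig2 and Cspg4 were higher (sums of 149 to 166 and 161 to 179 CPM). Of 4 hippocampal markers, C1ql2 (0.39, adjusted p = 0.00372, edgeR) and Wfs1 (0.24, adjusted p = 0.0292) were higher, with a list median of 0.32 and sums of 127 to 162 CPM in virgin and 134 to 185 CPM in primiparous libraries. Of the other marker lists, those of oligodendrocytes, astrocytes, endothelium, choroid plexus, hypothalamus and cerebellum had at most 1 gene called in each direction, and those of microglia, pituitary, neocortex and amygdala had 0. The part of these cell types and regions in the subunit differences was not tested.

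In base composition, over the 9 members, the log2 fold change in the hypothalamus rose with the GC content of the transcript (Spearman rho 0.967, n = 9 genes that share libraries, a description without a test), from Gria2 at 36.8% GC and Grik2 at 37.9% to Grik3 at 54.2% and Grik5 at 61.7%. Over 12632 genes with a known GC content, rho was 0.732. Libraries differed in this respect as a whole: the mean log2(CPM + 4) of the GC-richest quartile of genes minus that of the GC-poorest quartile was −0.343 to 0.056 (median −0.298) in virgin and −0.203 to 0.342 (median 0.031) in primiparous hypothalamus. When a trend of each library with gene length and GC content was taken into the fit as an offset, 1 of 9 members passed, beside 2.87% of all genes. Grik5 kept a positive log2 fold change of 0.14 (SE 0.037, adjusted p = 0.0353), whereas Gria2 was at 0.05 (adjusted p = 0.455), Grik2 at 0.01 (adjusted p = 0.920), Gria4 at −0.06 and Grik3 at 0.04.

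**Figure D4:**
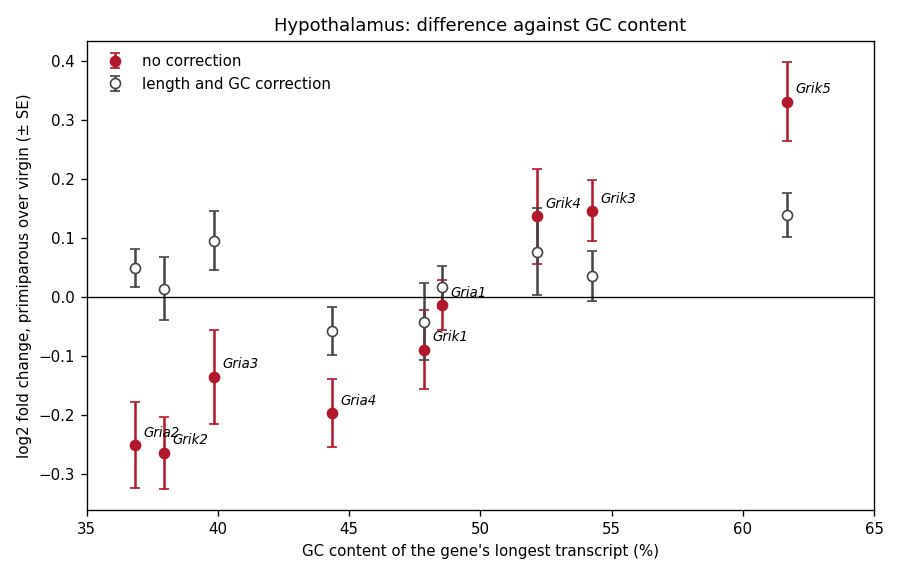
Log2 fold change of primiparous over virgin hypothalamus with its SE (vertical axis) against the GC content of the longest transcript of each subunit in percent (horizontal axis), without a correction (filled) and with a length and GC correction (open). Without the correction the values climb from Gria2 and Grik2 at the left to Grik5 at the right, and with it only Grik5 passed the threshold at 0.14.

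As to the numbering of the animals, of the virgin females 2 had 3-digit and 6 had 4-digit numbers, and of the primiparous females 7 had 3-digit numbers and 1 a 4-digit number, and what the digits stand for is not given in the sources used here. With the number of digits as a covariate, 0 of 9 members passed, beside 0.0230% of all genes. The log2 fold changes kept their direction for the 5 members named above, with Grik5 at 0.21 (adjusted p = 0.226), Grik2 at −0.20 (adjusted p = 0.233), Gria2 at −0.12, Gria4 at −0.11 and Grik3 at 0.07. Parity and whatever the numbering marks can be told apart only through 3 animals.

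In the other 4 regions 0 of 9 members passed the threshold, beside 0% of all genes in the hippocampus, the neocortex and the amygdala and 0.707% in the cerebellum. The plot of parity differences by region gives all 45 values. At an unadjusted p under 0.05 (edgeR) stood 4 members in the neocortex (9.80% of all genes), and 2 each in the hippocampus (7.38%), the cerebellum (19.5%) and the amygdala (11.9%). In limma-voom and DESeq2 fits 0 of 9 members passed in each of these regions. Of all genes, limma-voom called 0.553% in the cerebellum and 0% in the other 3, and DESeq2 called 3.88% in the cerebellum, 0.815% in the amygdala, 0.0999% in the hippocampus and 0% in the neocortex.

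**Figure D5:**
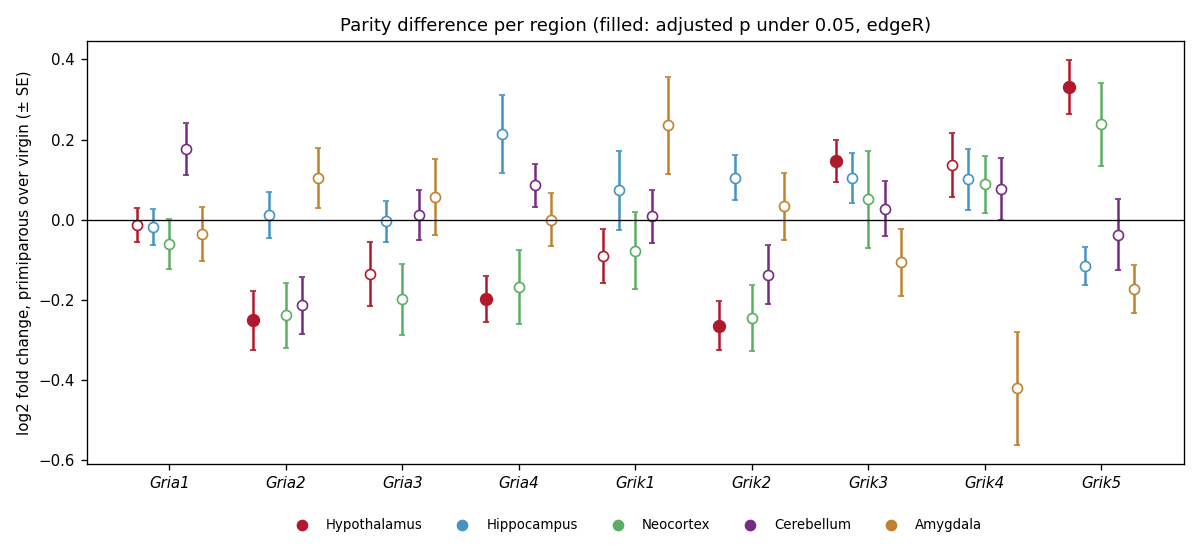
Log2 fold change of primiparous over virgin females with its SE (vertical axis) for each of the 9 subunits (horizontal axis) in the 5 regions, where filled points passed an adjusted p of 0.05. Filled points occur in the hypothalamus only, the neocortex values lie near those of the hypothalamus, and Grik4 in the amygdala is the lowest point at −0.42.

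In the neocortex the 4 members were Grik2 (log2 fold change −0.24, SE 0.083), Gria2 (−0.24, SE 0.081), Grik5 (0.24, SE 0.104) and Gria3 (−0.20, SE 0.089), with adjusted p from 0.479 to 0.492. Neocortical Gria2 had a lowest, median and highest value of 751, 806 and 959 CPM in virgin and 573, 664 and 827 CPM in primiparous females, and the groups overlapped. Libraries of this region had the larger biological coefficient of variation, 16.3% against 12.1% in the hypothalamus. The 6 astrocyte markers summed to 1380 to 1492 CPM in virgin and 1095 to 1403 CPM in primiparous neocortex, and none of them passed the threshold. The part of astrocytes in the subunit values of this region was not tested. With the length and GC correction, neocortical Gria2 was at 0.00 and was the only 1 of the 4 members to change sign. In the neocortex the fold changes of the members again rose with GC content (rho 0.967 over 9 members and 0.739 over all 12632 genes). This relation was not shared by all regions: rho over the 9 members and over all 12632 genes was −0.767 and −0.431 in the amygdala, −0.267 and −0.361 in the hippocampus, and 0.417 and −0.030 in the cerebellum.

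In the amygdala, Grik4 was at 13.7, 21.0 and 24.1 CPM in virgin and 11.5, 14.2 and 19.7 CPM in primiparous females, with 8 of 8 primiparous values below the virgin mean (log2 fold change −0.42, SE 0.141, adjusted p = 0.257, edgeR). Grik5 there was at 326, 352 and 391 CPM against 284, 314 and 355 CPM, with 8 of 8 below (log2 fold change −0.17, adjusted p = 0.261), the reverse of its direction in the hypothalamus. The GC difference of the libraries, defined above, was lower in primiparous females here, with a median of 0.269 (0.019 to 0.374) in virgin and 0.054 (−0.007 to 0.236) in primiparous amygdala. With the length and GC correction the log2 fold change of amygdala Grik5 was −0.02 (adjusted p = 0.956) and that of Grik4 was −0.40 (adjusted p = 0.480, edgeR). Of 6 neuronal and 6 astrocyte markers in the amygdala 0 passed, and 2 of each had an unadjusted p under 0.05, with Rbfox3 at −0.20 and Eno2 at −0.15 and with Aqp4 at 0.42 and Gja1 at 0.33. In 1 fit of all 10 groups, which pools the spread over regions, amygdala Grik4 passed with an adjusted p of 0.0279 (1.09% of all genes). In the cerebellum, Gria2 was lower (400 ± 37.0 and 342 ± 47.3 CPM, n = 7 and 8, log2 fold change −0.21, adjusted p = 0.119, edgeR) and Gria1 higher (756 ± 75 and 846 ± 71.1 CPM, log2 fold change 0.18, adjusted p = 0.147). Cerebellar Gria2 passed (adjusted p = 0.0276) when primiparous animal 4493 was left out (6.94% of all genes). Of 17 glial markers, 2 passed in this region. Of 6 oligodendrocyte markers, Mbp was higher in primiparous females (0.42, adjusted p = 0.0254, edgeR) and 5 had an unadjusted p under 0.05, with sums of 4457 to 5920 CPM in virgin and 5357 to 7513 CPM in primiparous libraries. Of 6 astrocyte markers, Aqp4 was higher (0.30, adjusted p = 0.0175) and 3 had an unadjusted p under 0.05 (sums of 2716 to 3352 and 2946 to 3489 CPM). Of 5 microglia markers 0 passed and 2 had an unadjusted p under 0.05 (sums of 61 to 75.3 and 72.8 to 91.6 CPM). Of 4 pituitary markers, 3 were among the genes tested, and each had an unadjusted p under 0.05 with higher values in primiparous hippocampus, cerebellum and amygdala, while 0 passed the threshold. All 4 together had a median sum of 1.77 CPM in virgin (at most 5.88) and 9.47 CPM in primiparous cerebellum (at most 148). In the amygdala this sum was 2.45 CPM (at most 15.1) and 5.73 CPM (at most 181). In the hippocampus it was 1.59 CPM (at most 2.22) and 3.43 CPM (at most 73.3). The part of these cells in the values of these regions was not tested. In the hippocampus, Gria4 was at 60.4 ± 5.97 CPM in virgin and 69.8 ± 12.8 CPM in primiparous females (log2 fold change 0.21, adjusted p = 0.661), and its highest value of 98.3 CPM was the library of animal 413 with cerebellar markers, against 58.4 to 76.1 CPM in the other 7 primiparous libraries. Without it, the primiparous mean was 65.8 ± 6.01 CPM (n = 7) and the log2 fold change was 0.13 (SE 0.069, adjusted p = 0.566, edgeR). Hippocampal Grik5 was at 300 ± 19.7 CPM in virgin and 276 ± 17.4 CPM in primiparous females (log2 fold change −0.11, adjusted p = 0.640, edgeR). This was again the reverse of its direction in the hypothalamus. Without the library of animal 413, hippocampal Grik5 was also at −0.11 (adjusted p = 0.472).

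To compare regions directly, the log2 fold change of another region was subtracted from that of the hypothalamus and tested as an interaction term over the libraries of both. Against the hippocampus 3 of 9 members passed (17.2% of all genes did). The difference of differences was 0.44 for Grik5 (SE 0.088, adjusted p = 0.0026, edgeR), −0.38 for Grik2 (SE 0.084, adjusted p = 0.0039) and −0.42 for Gria4 (SE 0.111, adjusted p = 0.0104). Without the hippocampus library of animal 413, 4 of 9 passed (19.2% of all genes), with Gria4 at −0.34 (adjusted p = 0.0103) and Gria2 at −0.31 (adjusted p = 0.0290) in place of −0.27 (adjusted p = 0.0558). The hypothalamic fits are shared by all of these interactions, which are therefore not independent of each other.

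Against the amygdala 4 of 9 passed (18.2% of all genes), namely Grik5 (0.51, SE 0.094, adjusted p = 0.000874, edgeR), Grik4 (0.56, SE 0.162, adjusted p = 0.0147), Gria2 (−0.35, SE 0.108, adjusted p = 0.0217) and Grik2 (−0.29, SE 0.104, adjusted p = 0.0423). Against the cerebellum 2 of 9 passed (15.5% of all genes), Gria4 at −0.29 (SE 0.079, adjusted p = 0.0132) and Grik5 at 0.36 (SE 0.116, adjusted p = 0.0322). Against the neocortex 0 of 9 passed and 0 had an unadjusted p under 0.05 (edgeR), beside 0% of all genes, and the differences of differences lay between −0.03 and 0.10. Since the same animals gave several regions, the interactions were also fitted with the animal as a block, where Grik2 against the amygdala (adjusted p = 0.077) and Grik5 against the cerebellum (adjusted p = 0.051) no longer passed, beside 14% and 11.5% of all genes in these fits and 11.1% against the hippocampus. With the block and the length and GC correction together, 0 of 9 passed against the hippocampus (0.469% of all genes) and the amygdala (0.738%). Against the cerebellum (3.9% of all genes), Gria2 alone passed at 0.24 (adjusted p = 0.046). It was not among the members called there without the correction, where its value had the other sign (−0.05, adjusted p = 0.818).

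Proteins that accompany the subunits were followed as lists, with counts in the hypothalamus read beside the 22.6% of all genes called there. Of 6 transmembrane AMPA receptor regulatory proteins (TARPs), which carry the receptors to synapses and slow their closing, 2 were higher in primiparous females, Cacng4 (log2 fold change 0.27, adjusted p = 0.0275, edgeR) and Cacng8 (0.26, adjusted p = 0.0334), and 0 were lower. Of 14 other AMPA receptor auxiliary genes, 2 were higher and 2 were lower. The higher ones were Cpt1c (0.21, adjusted p = 0.0143), which acts on receptor export from the endoplasmic reticulum, and Olfm2 (0.20, adjusted p = 0.0305), a secreted olfactomedin. The lower ones were its relative Olfm3 (−0.49, adjusted p = 0.00299) and Shisa9 (−0.15, adjusted p = 0.0347), a modulator of receptor desensitisation. Auxiliary genes of the AMPA receptor thus did not share a direction, and the medians of both lists were 0.02 and 0.07 beside 0.01 over all genes.

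Of 5 kainate receptor auxiliary and organising genes, 1 was higher and 2 were lower. C1ql2 (0.39, adjusted p = 0.00372, edgeR), a secreted organiser of kainate receptors that is also one of the hippocampal markers used here, was higher. Klhl24 (−0.32, adjusted p = 0.00203), an intracellular partner of Grik2, and Neto2 (−0.30, adjusted p = 0.0406), an auxiliary subunit that slows kainate receptor currents, were lower. Of 14 scaffold and trafficking genes, 5 were higher and 1 was lower, with a list median of 0.18. Those with the smallest p were Pick1 (0.27, adjusted p = 0.00598), Gripap1 (0.18, adjusted p = 0.00834), the postsynaptic scaffold Dlg4 (0.22, adjusted p = 0.00867) and Dlg1 (−0.17, adjusted p = 0.0103), which binds the tail of Gria1. Of 3 RNA editing genes 0 passed, also at an unadjusted p under 0.05, among them Adarb1, the enzyme that edits the Gria2 site printed above (−0.07, adjusted p = 0.468). In the other 4 regions 0 genes of these 5 lists passed. The hypothalamic calls of the lists rest on the fit without correction: of 42 genes, 15 passed there, 2 with the length and GC correction (beside 2.87% of all genes) and 0 with the digits of the animal number as covariate (beside 0.0230%). With the correction for length and GC, the genes that passed were Pick1 (0.21, adjusted p = 0.0382, edgeR) and Neto1 (0.34, adjusted p = 0.00305), both higher in primiparous females. Pick1 was also called without the correction. Neto1, an auxiliary subunit of kainate receptors, was not among the 15 and was gained.

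As a description of shared regional pattern, the genes outside the family whose log2(CPM + 4) followed each member most closely over the 77 libraries were listed by Pearson correlation, where the points form 5 clusters of region and share libraries. Gria4 had the closest companions, Ank1 (r = 0.982), Arhgap26 (0.977) and Chn2 (0.976), followed by Grik5 with Prr7 (0.980), Trim46 (0.976) and Matk (0.974). Gria2 was followed by Lgi1 (0.968), Ppp3r1 (0.963) and Pgm2l1 (0.950), Gria3 by Ankrd33b (0.966), Dcaf6 (0.959) and Sv2b (0.959), and Gria1 by Cabp7 (0.938), Tanc1 (0.934) and Prox1. For the other kainate subunits the closest genes were Dner (0.933) for Grik1, Kmt2c (0.917) for Grik2, Rims3 (0.931) for Grik3 and Clstn2 (0.902) for Grik4. Between members the strongest positive r was 0.781 (Gria4 with Grik1) and the strongest negative r was −0.932 (Gria4 with Grik5), a pair whose levels were at opposite ends in the cerebellum.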

How the data were processed

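RNA-seq libraries (NEBNext Ultra, polyadenylated RNA, single-end reads of 100 bases) were aligned by the authors with Hisat2 to mm10 and counted with featureCounts in its inbuilt annotation, using reads that map to a single place. Strand setting and tool versions are not given in the sources used here. The authors deposited raw counts, as whole numbers, of 27179 genes in 77 libraries. The log2 values that the authors deposited are described as log2(CPM + 4), but they equal log2 of the count over a size factor, plus 4, to within 5e-05, and lie away from log2(CPM + 4) by a median of 3.94. They were used only for gene symbols and for checking the filter, which gave the same 13016 genes.

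The members and lists were chosen with earlier results of these data known. In the text, all 9 members are named in the region comparison and in the parity comparison of the hypothalamus. For parity in the other 4 regions, the members with an unadjusted p under 0.05 are named. Among the interactions, those past the threshold in at least 1 fit are named. Of each list, up to 4 genes with the smallest p among those past the threshold are named. Likeness was read from the 3 best-correlated genes of each member. Counts were tested with edgeR 4.0.16 (quasi-likelihood F-test, robust, TMM) in R 4.3.3, with Benjamini-Hochberg adjustment over all genes and a threshold of 0.05, region by region. Standard errors are the log2 fold change over the square root of F. The fits were tested on simulated data with the spread of the hypothalamus. The parity fit recovered 16.2% of genes with a log2 change of 0.25 and 87.9% at 0.5 (edgeR). The interaction fit of hypothalamus and cerebellum recovered 4.41% and 39.4%. Differences of the size seen here can thus be missed. Positions, exon lengths and GC content (longest transcript) came from GENCODE M21 by Entrez identifier, for 12632 genes (97.0%). Alternatives were limma-voom (limma 3.58.1), DESeq2 1.42.0, other size factors, no filter, the digits of the animal number, a spline trend with length and GC, 1 fit of all groups, each library left out, and, chosen after seeing the data, animals of 1 number length only, no hippocampus library of animal 413, the lists under both corrections, and RefSeq transcript length.

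Animals recur over regions by their label number. The median correlation of deviations from group means between 2 regions was −0.0132 to 0.104 for the same animal and −0.0205 to 0.00685 for other animals, over 10 pairs of regions. No libraries had identical counts. Library depth is given in the report. The lowest member, Grik1, rests on as few as 91 reads. P-values of fits within a single region refer to the spread between animals. Fits that join regions without the animal as a block treat libraries of the same animal as independent. These include the main fits of region pairs and interactions.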

Additional observations from a re-analysis of the deposited data

Results flagged for a closer look

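In 6 of 90 groups of a member, region and state, 1 library lay apart from the rest by Dixon's test, about as many as the 1 in 20 groups that chance gives. Primiparous animal 413 had the lowest Gria1 value of its group in the hypothalamus (516 CPM) and the highest Gria4 value in the hippocampus (98.3 CPM), the library with cerebellar markers. The other 4 were Gria3 in the neocortex of virgin animal 4486 (230 CPM), Gria3 in the cerebellum of virgin animal 4488 (183 CPM), Grik2 in the neocortex of primiparous animal 427 (24.4 CPM) and Grik3 in the hypothalamus of virgin animal 409 (146 CPM).

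The parity difference of the hypothalamus differed from that of another region in 9 of 36 tests (9 members against 4 regions, edgeR interaction), where 17.2%, 15.5%, 18.2% and 0% of all genes passed against the hippocampus, cerebellum, amygdala and neocortex. On the log2 scale these were Grik5 against the hippocampus (0.44), the cerebellum (0.36) and the amygdala (0.51), Grik2 against the hippocampus (−0.38) and the amygdala (−0.29), Gria4 against the hippocampus (−0.42) and the cerebellum (−0.29), and Gria2 (−0.35) and Grik4 (0.56) against the amygdala. With the animal as a block (11.1%, 11.5%, 14% and 0% of all genes), 7 of these 9 passed, without Grik2 against the amygdala (adjusted p = 0.077, edgeR) and Grik5 against the cerebellum (adjusted p = 0.051). With the block and the length and GC correction together (0.469%, 3.9%, 0.738% and 0% of all genes), all 9 were lost. Gria2 and Grik2 against the amygdala then had the other sign, and Gria2 against the cerebellum was gained.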

How the results depend on the processing

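In the hypothalamus, the 5 members past the threshold became 0 with the digits of the animal number as covariate, 0 among animals with 3-digit numbers only (2 virgin and 7 primiparous, 0.00768% of all genes called, Gria3 reversed to 0.0026), 0 among those with 4-digit numbers only (6 virgin and 1 primiparous, 17.5% of all genes called, Grik1 reversed to 0.0069 and Grik4 to −0.034), 1 with the length and GC correction (reversed: Gria1 0.017, Gria2 0.049, Gria3 0.095, Grik2 0.015), 3 in 1 fit of all groups (16.8% of all genes), and 4 to 6 when 1 library was left out (15.5% to 31.6%). The 4-digit fit compares the single primiparous animal 4493, assumed to vary like the others, with the virgin animals, so its count says nothing about stability. With 1 library left out, Gria1 ran from −0.027 to 0.016, and was positive only without primiparous animal 413. DESeq2 (25.9%) and other size factors (22.6%) gave 5 members, and limma-voom (19.8%) and no filter (11.3%) gave 4, without Grik3. The 3 members in 1 fit of all groups were Gria2, Grik2 and Grik5, without Gria4 and Grik3.

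In the other regions, the count of 0 became 1 in the amygdala in 1 fit of all groups and ran from 0 to 1 in the cerebellum when 1 library was left out, and with the length and GC correction neocortical Gria2 was at 0.0018. The interactions against the hippocampus went from 3 members to 0 with replicate block and length and GC correction and to 4 without animal 413. Against the cerebellum they went from 2 to 1 with the replicate block and to 1 with block and correction, which was Gria2 (0.24, reversed from −0.05 and not one of the 2), and against the amygdala from 4 to 0 with block and correction, where Grik2 (0.097) and Gria2 (0.072) were reversed. The replicate block alone changed no other call than the 2 interactions and the Gria4 region pair named in the report (81 region pairs with it). Of the region pairs, 81 were called without animal 413. With block and correction, Gria4 between hypothalamus and neocortex (−0.063), Gria1 between hypothalamus and amygdala (−0.0018), Grik5 between hippocampus and neocortex (0.084, adjusted p = 0.0253, edgeR) and Grik2 between hippocampus and amygdala (−0.0087) were reversed, and besides Grik5 and the pairs in the report, Gria3 between hippocampus and amygdala (−0.16, adjusted p = 0.000653) and Grik2 between hypothalamus and hippocampus (0.12, adjusted p = 0.0245) were gained. This fit called 58.1% to 84.1% of all genes in a pair of regions and moved their median log2 difference between cerebellum and amygdala from 0.03 to 0.13. Gria1 led the AMPA sum in 3 regions with coding length, 3 without length and 4 with RefSeq transcript length, and Grik5 led the kainate sum in 4 with coding length and 4 without length. The cause of these changes was not tested.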
